A study of Mus musculus with 6 samples.

Results

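Cirbp and Rbm3 encode the cold-inducible RNA-binding proteins, and their RNA levels were examined in the lungs of Zpbp2 KO and WT mice. Both genes were taken from the deposited count table by their symbols, so the account covers 2 of 41388 genes, and both passed the filter on low counts that left 18660 genes for testing. The study compared adult C57BL/6J control mice (WT) with mice of the B6.129S7-Zpbp2 tmZuk/Mmjax strain (KO), which carry a germline deletion of the first exons of Zpbp2 in a C57BL/6J background and lack it in every tissue. Both groups were kept in one colony under equal periods of light and dark, and all lungs were collected at ZT7, that is 7 h after lights on. Each genotype had 3 libraries (WT1 to WT3, KO1 to KO3). The age in weeks and the sex of these 6 mice were not given in the sources used here.

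Cirbp and Rbm3 are small proteins with a single RNA recognition motif (RRM) followed by a glycine-rich tail. Mild cold raises both transcripts in many cell types, and in mammals with a daily temperature rhythm their levels follow body temperature in the opposite sense to the heat shock genes. Both proteins bind messenger RNA and influence the choice of polyadenylation site, and CIRBP is known to bind the transcript of the clock gene Clock and to sustain the amplitude of circadian oscillations in cultured cells. The comparison of KO with WT therefore asked whether these temperature-linked genes moved in the lungs in which the study looked for changes of the clock.

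Cirbp (ENSMUSG00000045193) is a plus-strand gene of chromosome 10 (GRCm38, 80165985 to 80172786), and Rbm3 (ENSMUSG00000031167) is a minus-strand gene of chromosome X (8138975 to 8145880). The annotation gives Cirbp 7 transcripts, of which 2 are protein-coding, and Rbm3 11 transcripts, of which 6 are protein-coding. In the principal transcripts, Cirbp-202 and Rbm3-203, the longest reading frames encode proteins of 172 and 154 residues. The 2 proteins were identical at 110 of 150 aligned residues (73.3%). The tripeptide arginine-glycine-glycine occurred 3 times in CIRBP and 2 times in RBM3, and glycine made up 24.6% and 25% of the residues that follow the RNP-1 motif. RNP-1 is the most conserved stretch of an RRM and contacts RNA. It is encoded within exon 3 of both transcripts, by residues 47 to 54, at chr10:80170051-80170074 on the plus strand and at chrX:8144621-8144644 on the minus strand of GRCm38. The coding bases are shown because they encode the RNA-contacting stretch of each protein, and capitals mark the 6 of 24 bases that differ.
Cirbp RNP-1: cgAggCtttggGttTGtcaccttT
Rbm3 RNP-1: cgGggTtttggCttCAtcaccttC

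Upstream of Cirbp, the octamer TCCCCGCC is known as a mild-cold response element that the transcription factor SP1 binds. The bases before the first exon of Cirbp-202 are shown because they hold it, at chr10:80167589-80167777 on the plus strand of GRCm38.p6 in RefSeq's promoter window, with the octamer in capitals. The stretch also lies within an intron of a longer transcript, Cirbp-207.
Cirbp upstream: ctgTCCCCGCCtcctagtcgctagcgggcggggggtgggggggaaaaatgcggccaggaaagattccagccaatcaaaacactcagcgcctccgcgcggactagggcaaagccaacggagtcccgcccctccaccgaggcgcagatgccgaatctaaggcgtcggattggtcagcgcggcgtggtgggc
The octamer, searched on both strands, was present in 1768 of 32851 promoter windows of the same length (5.38%). The octamer occurred in 1 of the 2 windows that RefSeq gives for Cirbp. The window with the octamer also held 2 matches to CCAAT, which was present in 37.4% of all windows, and the other window held neither. Neither Cirbp window contained the heat shock element letters GAANNTTC or TTCNNGAA or the E-box CACGTG, which were present in 7.86%, 8.52% and 7.15% of all windows. Rbm3 was looked up by symbol in the same table, and 1 of the 2 genes matched.

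Total counts per library ranged from 59134950 to 71354388. KO2 and KO3 bear the labels of different mice but were nearly as alike as counting error allows. Between them the median squared difference was 1.71 to 1.93 times that of pure counting for genes with 20 to 20000 counts in the pair, whereas the ratio for KO1 and KO2 rose from 3.74 to 21.0. Above 20000 counts the ratio was 3.32 for KO2 and KO3 and 147 for KO1 and KO2. For WT1 and WT2 it was 1.86 at 20 to 200 counts and 9.32 at 2000 to 20000 counts. KO2 and KO3 were counted as 1 sample, which left 3 WT and 2 KO samples. A fit with the 6 libraries kept separate is given as an alternative. Zpbp2, the deleted gene, had 20, 15 and 7 counts in WT1 to WT3 and 1, 0 and 0 counts in KO1 to KO3. Of the markers of the labelled tissue, the surfactant gene Sftpc had at least 750951 counts and the club cell gene Scgb1a1 at least 1400689 counts in each library.

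Cirbp did not differ between the genotypes by more than the spread of the WT libraries. Its level was 129, 94.0 and 97.9 CPM (the count scaled to the size of the TMM-adjusted library) in WT1, WT2 and WT3, and 122, 130 and 126 CPM in KO1, KO2 and KO3, from 5870 to 9439 counts per library. WT1 lay among the KO libraries, while WT2 and WT3 lay below all of them, so the groups overlapped. WT averaged 107 ± 19.1 CPM and KO 125 ± 4.09 CPM; here and in the following, group values are means ± SD with n = 3 WT and n = 2 KO samples. KO exceeded WT by 0.23 (SE 0.15) on the log2 scale (edgeR adjusted p 0.390). Expressed as a ratio, KO was 1.18 times WT, with a 95% confidence interval of 0.896 to 1.54, which spans 1.

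A difference in Rbm3 was likewise not detected. WT1, WT2 and WT3 had 47.5, 52.6 and 44.7 CPM, and KO1, KO2 and KO3 had 46.7, 48.0 and 52.0 CPM. Every KO library lay between the lowest and the highest WT library. WT averaged 48.3 ± 4.02 CPM and KO 48.3 ± 2.37 CPM. The difference of KO from WT was 0.01 (SE 0.08) on the log2 scale (edgeR adjusted p 0.971), and the 95% confidence interval of the ratio was 0.865 to 1.17. With a call defined by an edgeR adjusted p no higher than 0.05, 0 of the 2 genes were called, beside 2.28% of all tested genes. Neither gene reached an unadjusted p of 0.05 (0 of 2, beside 27.3% of all tested genes), and DESeq2 called 0 (beside 22.9%).

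**Figure D1:**
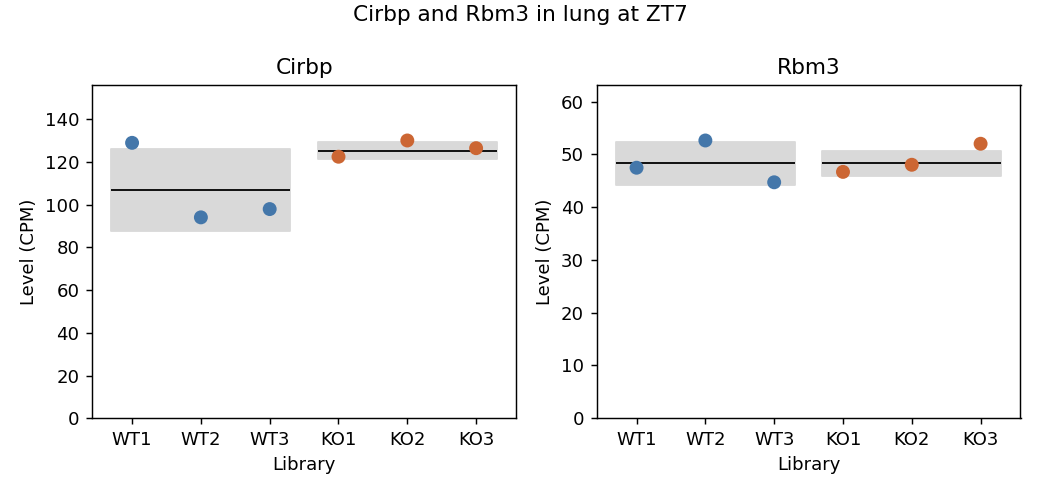
Levels of Cirbp and Rbm3 in CPM (y axis, from 0) in each library (x axis), WT in blue and KO in orange. Lines give the group means and grey bands the SD, with KO2 and KO3 averaged to 1 sample. Cirbp in WT1, at 129 CPM, lies with the KO libraries, and the Rbm3 points of both genotypes overlap.

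The WT libraries disagreed on Cirbp more than on most genes. The highest WT library was 1.37 times the lowest, a range of 0.46 on the log2 scale, whereas the median range among the 11005 tested genes with a mean of at least 10 CPM was 0.13. The range of Cirbp exceeded that of 94.5% of these genes in WT and of 26.1% in KO. For Rbm3 the WT range was 0.24, above 79.9% of these genes, and the KO range was above 52.3% of them. The size of the Cirbp difference moved with single libraries and with the processing. Without WT1 the difference was 0.39 (SE 0.07) on the log2 scale, with an unadjusted p of 0.00395 and an edgeR adjusted p of 0.171, in a fit in which 0 of 18426 genes were called and 3642 had a raw p no higher than 0.05. Without WT2 or WT3 the log2 fold change of Cirbp was 0.14 or 0.17, and with an offset for gene length and GC content it was 0.12 (adjusted p 0.703).

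**Figure D2:**
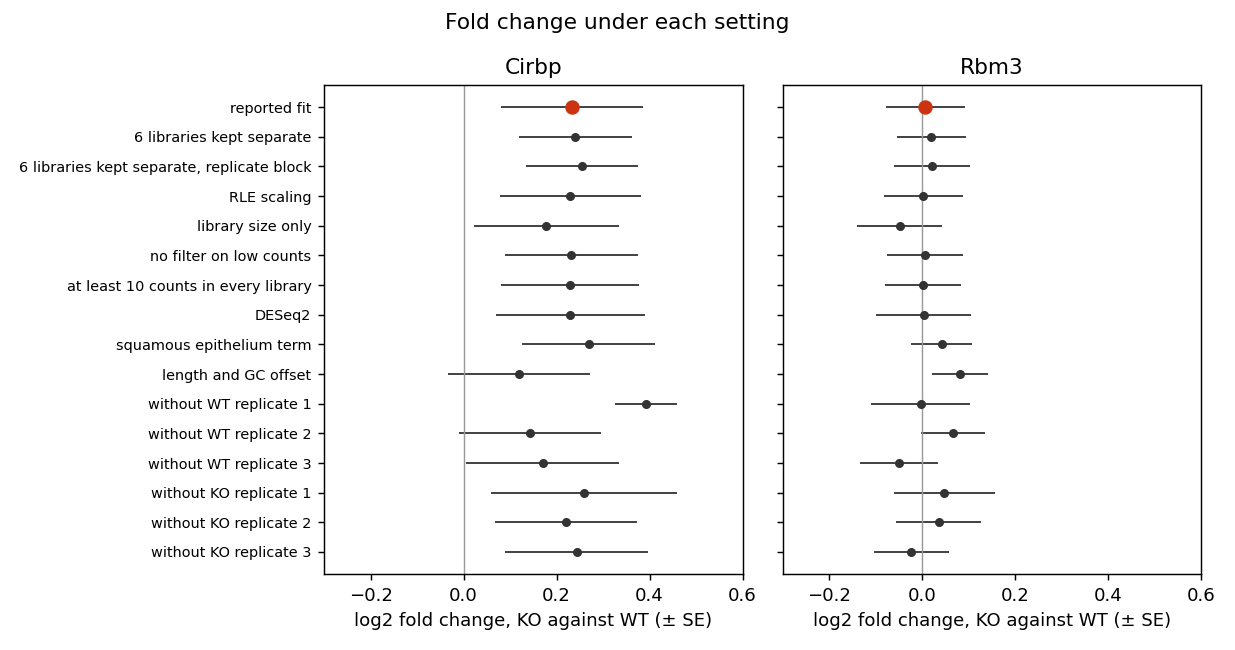
Log2 fold change of KO against WT (x axis) with its SE for Cirbp (left) and Rbm3 (right) in the reported fit (red) and under 15 alternatives (black). Cirbp lies between 0.12 and 0.39 and Rbm3 between -0.05 and 0.08.

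Cirbp was the more abundant of the pair when counts were scaled by length. Per kb of annotated exon sequence, 2604 bases for Cirbp and 4698 for Rbm3, the level was 41.1 ± 7.34 CPM per kb for Cirbp and 10.3 ± 0.856 CPM per kb for Rbm3 in WT. In KO these values were 48.1 ± 1.57 and 10.3 ± 0.504 CPM per kb. Scaled instead by the principal transcripts, of 1321 and 1225 bases, the WT levels were 81.0 and 39.4 CPM per kb, so the order held but the distance depended on the length used. Among all tested genes Cirbp had a higher CPM than 89.7% and Rbm3 than 72.7%. The ratio of Cirbp to Rbm3 CPM was 2.72, 1.79 and 2.19 in WT1 to WT3 and 2.62, 2.71 and 2.43 in KO1 to KO3. The ratio in WT1 lay with those of the KO libraries, and the groups overlapped (two-sided exact permutation p of 0.4, n = 3 and 2, where the smallest possible p is 0.1).

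The Rbm3 values carry an uncertainty that those of Cirbp do not. None of the 1272 stretches of 50 bases in Cirbp-202 occurred in a transcript of another gene (0 of 1272). In Rbm3-203, 433 of 1176 such stretches (36.8%) occurred elsewhere, and reads from them could be split between copies or dropped. Over all Rbm3 transcripts, 315, 255, 171 and 68 of 5024 such stretches occurred in the processed pseudogenes Rbm3-ps, Gm10156, Gm48583 and Gm13624, and 88 occurred on the opposite strand of a Phospho2 transcript. Gm10156 and Gm13624 had at most 2 counts in a library, and the other pseudogenes were not analysed here. The antisense gene Rbm3os overlaps 94 exonic bases of Rbm3 on the plus strand of chromosome X. It had 24 to 35 counts per library, against 2680 to 3697 for Rbm3, and KO and WT differed by 0.10 (SE 0.27) on the log2 scale (edgeR adjusted p 0.848). Whether the authors' counting used the strand was not given in the sources used here. Gene counts also add up coding, retained-intron and nonsense-mediated decay transcripts, which both genes have, so a switch between these forms would not be seen.

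Cirbp and Rbm3 did not follow each other across the samples. Likeness was measured as the root mean square difference of log2 CPM, centred for each gene, over the 5 samples, against 10990 other genes with a mean of at least 10 CPM. The genes nearest to Cirbp were Pik3ip1 (0.068), Tmco6 (0.069) and Nrde2 (0.070), of which Pik3ip1 encodes an inhibitor of phosphoinositide 3-kinase. Pik3ip1 was at 49.5, 39.7 and 38.3 CPM in WT1 to WT3 and at 44.7, 49.7 and 49.0 CPM in KO1 to KO3, and thus shared the high value in WT1. The genes nearest to Rbm3 were Rcor3 (0.019), Zbtb46 (0.022) and Rsrc2 (0.023). Zbtb46, a transcription factor of dendritic and endothelial cells, was at 46.5, 52.4 and 45.1 CPM in WT and at 46.5, 49.8 and 53.0 CPM in KO. The distance between Cirbp and Rbm3 themselves was 0.22, which placed Rbm3 at rank 5494 among the genes nearest to Cirbp.

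Other RNA-binding proteins linked to cold were examined next. The list held Srsf5 and Srsf2, which are splicing factors, and Rbmx, a relative of Cirbp, and 0 of the 3 genes were called with edgeR, while Srsf2 alone had a raw p no higher than 0.05 (1 of 3) and was called with DESeq2 (1 of 3). Over all tested genes these shares were 2.28% for edgeR, 27.3% for the raw p and 22.9% for DESeq2. Srsf2 was at 219, 220 and 212 CPM in WT1 to WT3 and at 244, 249 and 255 CPM in KO1 to KO3, without overlap, with a log2 fold change of 0.20 (SE 0.05) and an edgeR adjusted p of 0.0908. Srsf5 was at 389, 386 and 330 CPM in WT and at 362, 443 and 455 CPM in KO, so the groups overlapped (adjusted p 0.533). Rbmx differed by -0.06 in log2 (adjusted p 0.731).

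Among 16 listed relatives with an RRM, Rbmx again included, edgeR called 3 higher in KO and 0 lower. The shares of all tested genes called higher and lower in KO were 1.38% and 0.906%. Of the fold changes, 13 were above 0 and 3 below. The median log2 fold change was 0.14, against 0.02 over all tested genes. A raw p no higher than 0.05 was found for 6 of the 16 (against 27.3% of all tested genes), and DESeq2 called 5 (against 22.9%). Hnrnpa0, which stabilises AU-rich messenger RNAs, rose from 87.2 ± 6.35 CPM to 129 ± 10.3 CPM, with a difference of 0.57 in log2 (SE 0.09, edgeR adjusted p 0.0487). Hnrnpab rose from 177 ± 5.83 to 231 ± 8.03 CPM (log2 fold change 0.39, adjusted p 0.0472). Taf15, a factor associated with RNA polymerase and TFIID, rose from 64.6 ± 1.17 to 82.9 ± 2.23 CPM (log2 fold change 0.36, adjusted p 0.0446). Each of these 3 genes was higher in every KO library than in any WT library, whereas Cirbp overlapped. The same separation was found for relatives that were not called, such as Hnrnpa2b1 and Ewsr1, so it did not set the 3 apart. The abundant relatives Hnrnpa2b1 and Ewsr1 had log2 fold changes of 0.14 and 0.13 and adjusted p values of 0.243 and 0.258.

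Genes known to act on CIRBP and RBM3 or to be acted on by them were listed next. Of 15 genes, edgeR called 1 higher in KO (against 1.38% of all tested genes) and 0 lower (against 0.906%), 10 had a raw p no higher than 0.05 (against 27.3% of all tested genes), DESeq2 called 7 (against 22.9% of all tested genes) and 7 were called with separate libraries (against 18.9% of all tested genes). Of the fold changes, 7 were above 0 and 8 below, and the median was -0.04. Txn1, thioredoxin, whose transcript CIRBP binds, rose from 129 ± 6.00 CPM to 179 ± 13.6 CPM, with a difference of 0.48 in log2 (SE 0.07, edgeR adjusted p 0.0474). Sp1, the factor of the cold response element, was at 147 ± 7.45 CPM in WT and 125 ± 1.58 CPM in KO, and Gsk3b, a kinase that phosphorylates CIRBP, at 104 ± 1.81 and 91.8 ± 2.37 CPM. Their KO libraries were all below the WT libraries, a separation whose share over all tested genes was not counted. Neither was called with edgeR (adjusted p 0.0990 and 0.0952), whereas DESeq2 called both (0.00558 and 0.00122). With the length and GC offset their log2 fold changes shrank from -0.23 to -0.08 and from -0.18 to -0.01 (adjusted p 0.385 and 0.883). Rtn3, through which RBM3 is known to protect synapses, had an adjusted p of 0.265. Trpv4, a temperature-sensitive channel upstream of both genes, and Ntrk2, the receptor TrkB upstream of RBM3, were chosen after their values were seen. Trpv4 was at 12.5 ± 0.570 CPM in WT and 14.1 ± 0.00479 CPM in KO (adjusted p 0.230). Ntrk2 was at 28.9, 42.3 and 35.1 CPM in WT1 to WT3 and at 21.4, 13.7 and 12.5 CPM in KO1 to KO3, a difference of -1.03 in log2 (SE 0.26, edgeR adjusted p 0.0888, DESeq2 0.000795).

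**Figure D3:**
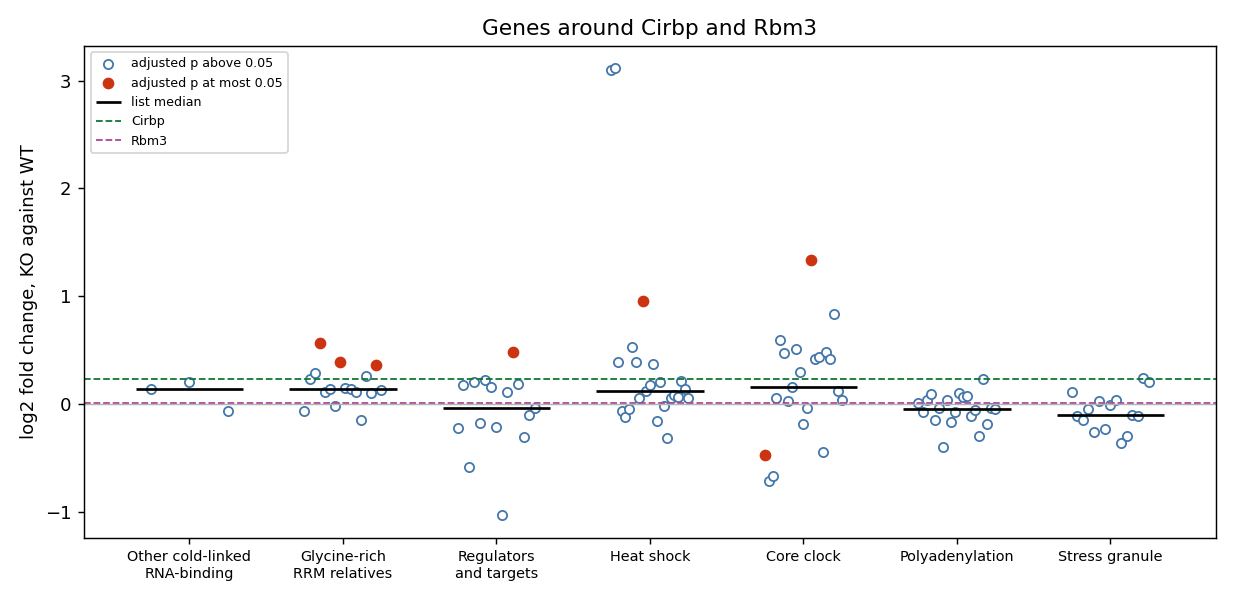
Log2 fold change of KO against WT (y axis) for the genes of 7 lists (x axis), filled red where the edgeR adjusted p is at most 0.05 and open otherwise. Bars give the list medians and dashed lines Cirbp (0.23) and Rbm3 (0.01), both of which lie within the range of the uncalled genes.

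The heat shock genes, which respond to temperature in the opposite sense, were compared with Cirbp library by library. Of 23 listed genes, edgeR called 1 higher in KO (against 1.38% of all tested genes) and 0 lower, with a median log2 fold change of 0.12. A raw p no higher than 0.05 was found for 8 of the 23, near the share over all tested genes (27.3%), and DESeq2 called 6 (against 22.9% of all tested genes). Hspb1, a small heat shock protein, rose from 33.4 ± 4.46 CPM to 64.7 ± 7.2 CPM, with a difference of 0.96 in log2 (SE 0.13, edgeR adjusted p 0.0474). Hsp90ab1, the most abundant of them, differed by -0.05 in log2 (adjusted p 0.702), and the next most abundant uncalled genes, Cryab and Fkbp4, by 0.17 and 0.21 (0.452 and 0.0704). DESeq2 called Fkbp4 (8.89e-06). Hspa1a, Hspa1b, Dnajb1 and Hspa8 were chosen after their values were seen. Hspa1a, an inducible HSP70 gene, was at 6.21, 7.54 and 9.72 CPM in WT1 to WT3, at 22.7 CPM in KO1 and at 109 and 112 CPM in KO2 and KO3, a difference of 3.10 in log2 (SE 0.66, edgeR adjusted p 0.0691, DESeq2 0.00133). Its near-identical copy Hspa1b was at 7.28, 7.74 and 12.8 CPM in WT and at 27.1, 131 and 134 CPM in KO (edgeR adjusted p 0.0716, DESeq2 0.000967), and reads of the copies cannot be told apart with certainty. KO1 and the merged KO sample thus differed widely in HSP70 transcripts while their Cirbp levels were close, at 122 CPM in KO1 and 130 and 126 CPM in KO2 and KO3.

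Within WT the library with the most Cirbp stood low for several heat shock genes. WT1 had the lowest value of 12 of the 23 heat shock genes and the highest of 1, whereas it was the lowest WT library for 33.5% and the highest for 28.8% of all tested genes. WT1 also held the most cardiomyocyte transcripts, with a sum of 7439 CPM over 10 genes, and their part in these values was not tested. Dnajb1, a co-chaperone of HSP70, was at 47.7 CPM in WT1 and at 64.8 and 71.9 CPM in WT2 and WT3. Hspa8, the constitutive HSC70 gene, was at 126 CPM in WT1 and at 143 and 150 CPM in WT2 and WT3. In KO1 to KO3 Dnajb1 was at 86.0, 89.7 and 92.0 CPM and Hspa8 at 168, 196 and 198 CPM, above every WT library. Neither was called with edgeR (adjusted p 0.136 and 0.103), whereas DESeq2 called both (0.0223 and 0.00742). Low Dnajb1 and Hspa8 and high Cirbp values thus went together in WT1, while the KO libraries had high values of all 3 genes. This is a description over 6 libraries, and it does not hold for every gene of the list or for Rbm3. Within WT, Rbm3 was highest in WT2 (52.6 CPM), lowest in WT3 (44.7 CPM) and at 47.5 CPM in WT1. WT2 and WT3 each had the highest WT value of 11 of the 23 heat shock genes.

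**Figure D4:**
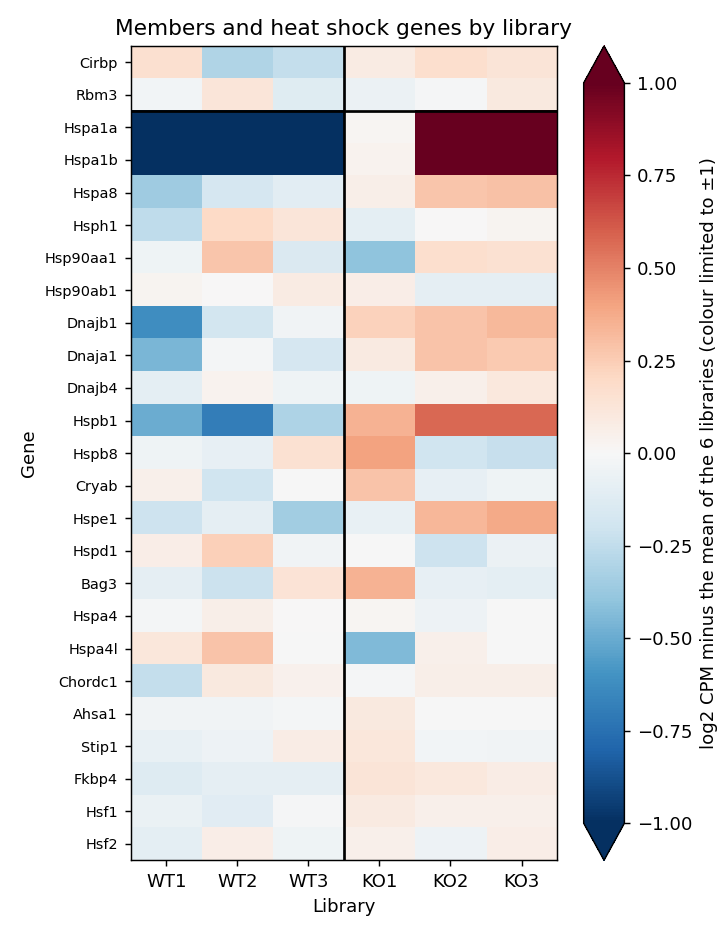
Log2 CPM minus the mean of the 6 libraries (colour, limited to ±1) for Cirbp, Rbm3 and 23 heat shock genes (rows) in each library (columns). Cirbp is above its mean in WT1 and in the KO libraries, and Hspa1a and Hspa1b are high in KO2 and KO3.

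Core clock genes and the clock output Dbp were listed because CIRBP acts on Clock. Of 21 genes edgeR called 1 higher (against 1.38% of all tested genes) and 1 lower (against 0.906%) in KO, with a median log2 fold change of 0.16. A raw p no higher than 0.05 was found for 10 of them (against 27.3% of all tested genes), and DESeq2 called 9 (against 22.9% of all tested genes). Clock fell from 84.0 ± 5.12 CPM to 60.2 ± 0.701 CPM, a difference of -0.48 in log2 (SE 0.06, edgeR adjusted p 0.0446). The level in WT1, which had the most Cirbp of WT, was 78.9 CPM, the lowest of WT, and WT2 and WT3 were at 89.2 and 83.9 CPM. Dbp rose by 1.34 on the log2 scale (adjusted p 0.0446). The abundant genes Nr1d1, Tef and Csnk1d were not called with edgeR (adjusted p 0.0512, 0.198 and 0.240). The level of Nr1d1 was 278 ± 22.55 CPM in WT and 395 ± 8.03 CPM in KO, a difference of 0.51 in log2 (SE 0.08). Every KO library lay above every WT library for this gene. Nr1d1 was called with DESeq2 (4.64e-07), with separate libraries (0.00887) and with these and the replicate block (0.0397). It was also called with at least 10 counts in every library (0.0434) and with the squamous epithelium term (0.0285). Under 10 of the 15 alternatives it stayed uncalled. Tef was called with the replicate block (0.0483). With an offset for gene length and GC content Clock had a log2 fold change of -0.23 and was not called.

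The machinery of polyadenylation and the stress granule proteins, with which CIRBP and RBM3 act, showed no gene called with edgeR. Of 20 polyadenylation genes 0 were called with edgeR, 4 had a raw p no higher than 0.05 and 2 were called with DESeq2, both no more than the shares over all tested genes (27.3% and 22.9%), and the median log2 fold change was -0.05. Papola, the poly(A) polymerase, and Sympk, a scaffold of the cleavage complex, had log2 fold changes of -0.06 and -0.11 (edgeR adjusted p 0.609 and 0.353), and Rbbp6 of -0.05 (0.673). Of 15 stress granule genes 0 were called with edgeR, 6 had a raw p no higher than 0.05 and 6 were called with DESeq2, against the same 27.3% and 22.9% of all tested genes, with a median of -0.10. Ddx3x, an RNA helicase, was at 302 ± 6.73 CPM in WT and 234 ± 12.5 CPM in KO (adjusted p 0.0523), and Ybx1 was at 249 ± 2.22 and 293 ± 6.65 CPM (adjusted p 0.0635), and DESeq2 called both (4.04e-08 and 5.59e-08). The third abundant gene, Pabpc1, a poly(A)-binding protein, overlapped between the groups at 251 ± 27.1 and 256 ± 8.21 CPM (edgeR adjusted p 0.855). Ybx1 differed by 0.24 in log2, and by 0.14 under the length and GC offset (edgeR adjusted p 0.165). These 8 lists, immediate early genes included, held 133 genes, of which 8 were called (6.02%, against 2.28% of all tested genes), and 42 were called when the 6 libraries were kept separate (against 18.9% of all tested genes). Without WT1, WT2 or WT3 the adjusted p of the 8 genes was 0.123 to 0.190, in fits in which 0 of all tested genes were called. Their log2 fold changes kept their signs. The ranges were 1.32 to 1.35 for Dbp, 0.35 to 0.38 for Taf15 and 0.37 to 0.41 for Hnrnpab. They were wider for Hspb1 (0.86 to 1.06), Hnrnpa0 (0.51 to 0.61), Txn1 (0.46 to 0.52) and Clock (-0.52 to -0.44). Leaving out any 1 library gave 0.83 to 0.99 for Jund. Leaving out KO1 left a single KO sample, which was assumed to vary like the WT samples. In that fit Dbp alone of the 8 was called (adjusted p 0.0185), and Hspa1a was called as well (0.0410). Without KO2 the adjusted p of Hnrnpa0, Hnrnpab and Txn1 was 0.0520, 0.0514 and 0.0504. With the length and GC offset 0 of the 8 were called.

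Transcripts of other tissues moved with the genotype or with single libraries, and in bulk lung fewer cells of a type cannot be told from less RNA per cell. The 10 cardiomyocyte genes summed to 7439 CPM in WT1, the WT library with the most Cirbp, to 3230 and 2627 CPM in WT2 and WT3, and to 1381 to 1567 CPM in KO. The 10 adipocyte genes summed to 950 to 1429 CPM in WT and 215 to 395 CPM in KO, and all 10 had fold changes below 0. The 15 squamous epithelium genes summed to 4939 CPM in WT3 and 9419 CPM in KO1 and to at most 38.8 CPM in the other libraries, and with a term for them the log2 fold change of Cirbp was 0.27 (edgeR adjusted p 0.247) and that of Rbm3 0.04 (0.696). The erythroid genes summed to 2400 to 5523 CPM in WT, 3967 CPM in KO1 and 18997 to 19742 CPM in KO2 and KO3. The 10 alveolar type 2 genes were at 22189 to 23212 CPM in WT and 31470 to 33174 CPM in KO, and the 8 airway genes at 29263 to 34288 CPM in WT and 38613 to 51234 CPM in KO. Immediate early genes summed to 2045 to 2598 CPM in WT and 3662 to 5740 CPM in KO, and edgeR called 1 of 21 higher (against 1.38% of all tested genes) and 0 lower. Of these genes 19 had fold changes above 0, 12 had a raw p no higher than 0.05 (against 27.3% of all tested genes) and the median log2 fold change was 0.91. The called gene was Jund (log2 fold change 0.91, adjusted p 0.0446, and 0.54 and 0.0761 with the length and GC offset). None of the genes of these lists found in the table was at 0 in all libraries. Apart from the squamous epithelium term, the part of these differences in the values of Cirbp and Rbm3 was not tested.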

How the data were processed

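Lung RNA of 3 WT and 3 KO mice at ZT7 was sequenced. The authors trimmed the reads, aligned them (STAR, GRCm38) and summarised them by gene (HTSeq) within GenPipes, and the deposited table holds raw counts per gene. The submitters' processing notes name Trimmomatic 0.36, STAR 2.5.3a, Picard 2.9.0 and HTSeq 0.6.0. The annotation release and strand setting were not given in the sources used here. The test was run in edgeR 4.0.16 under R 4.3.3 (filterByExpr, TMM scaling, quasi-likelihood test, two-sided, Benjamini-Hochberg adjustment over all tested genes), with KO2 and KO3 summed. Calls required an adjusted p no higher than 0.05. Standard errors were derived from the F statistic. DESeq2 1.42.0 was an alternative, as were other scalings and filters, a squamous epithelium term, a length and GC offset, separate libraries and each library left out. The procedure was tested on simulated data. Coordinates and lengths came from GENCODE M21 on GRCm38. Intervals cover the spread between these samples only, and counts without molecular identifiers are not independent molecules. The genes and lists were chosen with earlier results of these data known. From each list the called genes and at most the 3 most abundant others were named, with further genes named as chosen after their values were seen. A gene that this rule selects is not reported here.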

Additional observations from a re-analysis of the deposited data

How the results depend on the processing

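Cirbp kept a log2 fold change above 0 and stayed uncalled under all 15 alternatives (adjusted p 0.171 to 0.703), and leaving out 1 library at a time moved it from 0.14 to 0.39. Rbm3 stayed uncalled under all 15 (adjusted p 0.495 to 0.991), but its sign turned with library size as the only scaling (-0.0483) and without single libraries (-0.0502 to 0.0664, with -0.0031 without WT1, -0.0502 without WT3 and -0.0233 without KO3); the cause was not tested. The replicate numbers did not pair the libraries: the correlations of their deviations from the group means were -0.66, 0.69 and -0.78 for numbers 1 to 3. With the replicate block the log2 fold change was 0.25 for Cirbp (adjusted p 0.240) and 0.02 for Rbm3 (0.894).

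The number of called genes, 426 as reported, and of the listed genes among them, 8, moved as follows. They were 3402 and 42 with separate libraries, 1157 and 20 with these and the replicate block, 937 and 13 with at least 10 counts in every library, 3919 and 47 with DESeq2, 2097 and 27 with the squamous epithelium term, and 1 and 0 with the length and GC offset. Library size alone left 4 listed genes called. Leaving out 1 library gave 0 to 418 called genes and 0 to 8 listed ones. Without any 1 WT library 0 genes were called, against 3346 to 4193 with a raw p no higher than 0.05. Among uncalled genes near 0, signs turned with the length and GC offset for Sympk (0.0060), Papola (0.0510), Rsrc2 (0.1313), Rbbp6 (0.1753), Cryab (-0.0180) and Rbm3os (-0.0203), and with library size alone for Rcor3 (-0.0443), Zbtb46 (-0.0224) and Pabpc1 (-0.0182). Leaving out 1 library gave -0.1393 to 0.0147 for Rbmx, -0.0502 to 0.0577 for Rcor3, -0.0159 to 0.0949 for Zbtb46, -0.0806 to 0.0233 for Rsrc2, -0.0286 to 0.1223 for Pabpc1, -0.0581 to 0.0172 for Rbbp6 and -0.0179 to 0.2255 for Cryab. The cause was not tested.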
